A study of Mus musculus with 6 samples.

Results

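Expression of 9 genes for regulators of G protein signalling, Rgs1, Rgs2, Rgs3, Rgs10, Rgs11, Rgs14, Rgs16, Rgs18 and Rgs19, was compared across the 3 Ikzf3 genotypes. The genes were taken by symbol from the 25239 genes in the count files. A further 18 genes with an RGS-type domain, such as Rgs12, Axin1 and Axin2, were kept apart as other family genes. Of the 9 genes, 8 passed the filter on low counts that left 12117 genes for testing, and Rgs18 did not. Rgs1 was the one gene of the 9 that passed the test between Ikzf3 N159S/N159S and Ikzf3 +/+, as did 5.21% of all tested genes. Its level was ordered by the number of N159S alleles in every library, as for 4.08% of tested genes. The place of Ikzf3 +/N159S in that order cannot be told apart from sex, as described below.

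RGS proteins bind the active, GTP-loaded alpha subunit of a heterotrimeric G protein and speed its hydrolysis of GTP, which ends the signal of the receptor upstream. In lymphocytes the receptors concerned include those for chemokines and sphingosine 1-phosphate, which couple to Gi proteins and steer cells into and out of lymphoid organs. The genes described here fall into 4 subfamilies named after a member, R4 (Rgs1, Rgs2, Rgs3, Rgs16 and Rgs18), R12 (Rgs10 and Rgs14), R7 (Rgs11) and RZ (Rgs19).

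RNA-seq was made from TCRb+CD4+CD44-CD127+ T cells, a population close to naive helper T cells, that were purified by FACS from the spleens of C57BL/6 mice. Each of 3 genotypes had 2 libraries, 6 in all: the wild type (Ikzf3 +/+), heterozygotes (Ikzf3 +/N159S) and homozygotes (Ikzf3 N159S/N159S), whose cells are called wild-type, heterozygous and homozygous here. Ikzf3 encodes the zinc finger transcription factor Aiolos, and N159S is a missense allele knocked into the germline by genome editing, so every cell of the animal carries it. The ages of the mice and whether one library came from one mouse were not given in the labels, so p-values measure the spread between these libraries.

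The libraries held 11696461 to 17317260 reads on genes, and 7712 to 12225 of them, or 0.0659% to 0.0706%, fell on the 9 RGS genes. Transcripts of the sorted population were abundant in every library. Cd4 had 10196 to 14884 normalized counts and Il7r, which encodes CD127, had 13255 to 19289, against 238 to 652 for Cd44. A normalized count is a read count scaled to a common library size of 14969149 reads. Ikzf3 itself had 2351 and 2312 normalized counts in wild-type cells, 2511 and 2278 in heterozygous cells, and 2950 and 3032 in homozygous cells. Those counts say nothing of the allele, because a missense change is not seen in a gene count. The 2 Ikzf3 +/N159S libraries stood apart in sex-linked genes. Xist, which is transcribed from the inactive X chromosome, was at 731 and 824 CPM (reads scaled to a fixed library total) in them and at 0.773 to 1.98 CPM in the other libraries, while Y-linked Ddx3y was at 1.06 and 1.09 CPM in them and at 264 to 313 CPM elsewhere. The sex of the mice and the heterozygous genotype therefore cannot be told apart, and every comparison with heterozygous cells below carries that limit. The wild-type and homozygous libraries did not differ in this way.

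The RGS fold is what the 9 genes share. A stretch of 60 coding bases from it is shown for Rgs1, for Rgs2 and Rgs18, which lie near Rgs1 on chromosome 1, and for Rgs16 and Rgs3, to show how far reads of one gene can be told from those of another. Capitals mark the 25 bases that are the same in all 9 genes, and the sequences are GENCODE M21 transcripts, read 5′ to 3′ on the coding strand.
Rgs1, chr1:144246280-144246339 (mm10, minus strand), exon 4 of 5: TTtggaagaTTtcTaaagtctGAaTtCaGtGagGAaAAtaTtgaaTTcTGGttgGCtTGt
Rgs2, chr1:144002209-144002268 (mm10, minus strand), exon 4 of 5: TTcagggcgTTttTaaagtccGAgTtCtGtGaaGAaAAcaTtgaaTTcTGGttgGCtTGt
Rgs18, chr1:144756016-144756075 (mm10, minus strand), exon 4 of 5: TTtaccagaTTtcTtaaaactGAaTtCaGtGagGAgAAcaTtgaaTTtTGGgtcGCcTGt
Rgs16, chr1:153741977-153742036 (mm10, plus strand), exon 4 of 5: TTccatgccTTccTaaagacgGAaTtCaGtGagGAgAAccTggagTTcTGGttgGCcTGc
Rgs3, chr4:62701048-62701107 (mm10, plus strand), exon 15 of 16: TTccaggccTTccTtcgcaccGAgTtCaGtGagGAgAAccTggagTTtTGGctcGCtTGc
In this window Rgs2 and Rgs18 each matched Rgs1 at 48 of 60 bases, Rgs16 at 43, Rgs10, Rgs11 and Rgs19 at 38, Rgs3 at 36 and Rgs14 at 33. The window was chosen as the most alike 60 bases of the 9 coding sequences, in whole codons and without gaps in the alignment of their proteins. Even so, no run of 50 bases was shared between the transcripts of any of the 9 genes.

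Levels differed far more between the 9 genes than between genotypes. Levels are given as RPKM, which is CPM divided by the exon length in kilobases, so that genes of different length can be set side by side. Rgs10 had the highest level, with a mean of 127 RPKM over the 6 libraries (range 111 to 142), above 96.5% of 11744 tested genes with a known length. Rgs10 encodes a small protein that is little more than an RGS domain. Rgs14, whose product also binds Ras and Rap proteins and inactive Gi alpha, followed at 79.0 RPKM (71.4 to 90.5), above 93.5% of genes. Rgs19, first described as a Gi alpha interacting protein, was at 54.4 RPKM (50.3 to 60.1), and Rgs2, which acts on Gq alpha in preference to Gi alpha, was at 46.3 RPKM (38.5 to 53.1). The libraries of Rgs19 and Rgs2 overlapped in level, whereas those of Rgs10, Rgs14 and Rgs19 did not. These 4 genes together made up 87.5% to 91.0% of the summed RPKM of the 9.

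Rgs11 and the R4 genes Rgs1 and Rgs3 formed a middle tier. Rgs11 had a mean of 16.4 RPKM (14.2 to 18.3), Rgs1 of 9.87 RPKM (5.37 to 19.0) and Rgs3 of 8.39 RPKM (6.78 to 9.62). Rgs1 overlapped with both of its neighbours in this order, since its Ikzf3 +/+ libraries lay below all Rgs3 libraries and its highest Ikzf3 N159S/N159S library lay above all Rgs11 libraries. Its share of the summed RPKM of the 9 genes was 1.59% and 1.70% in wild-type cells and 3.59% and 5.58% in homozygous cells. Rgs3 has long isoforms, with 7718 bases of exons, and the level per length depends on which of them are used. Rgs11 overlaps the gene Arhgdig on the opposite strand, and the strand setting of the read counting was not given in the sources used here, so reads of the pair may be mixed and its values are uncertain. Rgs16, known as a gene induced in activated lymphocytes, was at 0.661 RPKM (0.294 to 1.09). Rgs18, known for its role in platelets and their precursors, was at 0.0543 RPKM.

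**Figure D1:**
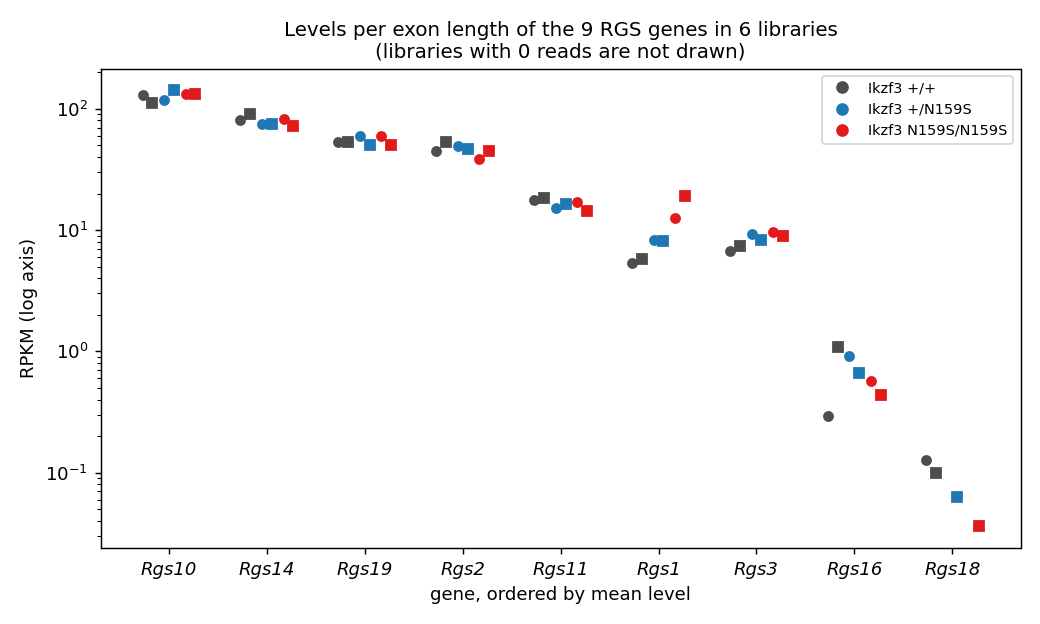
Level of each RGS gene in RPKM (log axis) in every library, with genes ordered by mean level, colours for the Ikzf3 genotype, circles for replicate 1 and squares for replicate 2. Rgs10 lies at 111 to 142 RPKM and Rgs16 at 0.294 to 1.09 RPKM, and Rgs1 is the gene of the middle tier whose genotypes lie apart.

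The first question was which of the genes differed between homozygous and wild-type cells. Rgs1 was higher and no other member passed the test, an adjusted p under 0.05 by the quasi-likelihood test of edgeR, with Benjamini-Hochberg adjustment over 12117 genes. That is 1 of the 8 tested members, where 5.21% of all tested genes passed (3.1% higher and 2.1% lower). The count is too small to set the members apart from other genes, and the median absolute log2 fold change was 0.22 over the 8 members and 0.17 over all tested genes. The signed medians were -0.06 and 0.00018, with 4 members higher and 4 lower. An unadjusted p under 0.05 was reached by 2 members, Rgs1 and Rgs3. Rgs2, at an unadjusted p of 0.0523, ranked 2280 by p among the 12117 genes, so such values were common. Counts at an unadjusted p for this comparison, here and below, are to be read beside that rank. The libraries of the 2 genotypes did not overlap for 5 of the 8 members, Rgs1, Rgs2, Rgs3, Rgs10 and Rgs11, and they did not overlap for 48.3% of all tested genes.

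Rgs1, a brake on chemokine responses of activated B and T cells that lies at chr1:144242296-144249242 (mm10), was at 309 and 333 normalized counts in the Ikzf3 +/+ libraries. It was at 474 and 471 in heterozygous cells and at 726 and 1092 in homozygous cells, from 240 to 996 reads per library. Every library of a genotype with more N159S alleles thus lay above every library of a genotype with fewer, an order that 4.08% of the tested genes also had, and Rgs1 was the one tested member with it. The mean was 321 ± 17.5 (SD, n = 2) in wild-type cells, 473 ± 2.13 in heterozygous cells and 909 ± 259 in homozygous cells. Between the homozygous and wild-type genotypes the log2 fold change was 1.50 (SE 0.17, 95% confidence interval 1.11 to 1.88), a 2.82-fold difference, with an adjusted p of 0.000557. By p, Rgs1 ranked 64 among the 12117 genes. The 2 homozygous libraries were the least alike. Without the higher of them, replicate 2, the log2 fold change was 1.18 (adjusted p 0.00111), and without replicate 1 it was 1.77 (adjusted p 4.56e-05). An exact permutation test of 2 libraries against 2 cannot give a p below 0.333, so the calls rest on the spread shared across genes.

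The second question was where heterozygous cells stood. Rgs1 was 1.47-fold higher in heterozygous cells than in wild-type cells, with a log2 fold change of 0.56 (SE 0.18, 95% confidence interval 0.17 to 0.94), an unadjusted p of 0.00887 and an adjusted p of 0.150, which missed the threshold. It passed when Ikzf3 N159S/N159S replicate 1 was left out of the fit (adjusted p 0.0431). No member passed in that comparison, in which 1.75% of all tested genes did, and DESeq2 also called none. The unadjusted p was under 0.05 for 2 members, Rgs1 and Rgs3. Rgs3, at an unadjusted p of 0.0128, ranked 900 by p among the 12117 genes in this comparison, and the count of 2 is to be read beside that rank. From heterozygous to homozygous cells Rgs1 rose 1.92-fold, with a log2 fold change of 0.94 (SE 0.17, 95% confidence interval 0.57 to 1.31) and an adjusted p of 0.0190, and it was the 1 member called where 1.49% of all tested genes were. This call was lost without Ikzf3 +/N159S replicate 1 (adjusted p 0.0715), without Ikzf3 +/N159S replicate 2 (0.0690) and without Ikzf3 N159S/N159S replicate 2 (0.100, log2 fold change 0.63). These comparisons share libraries with one another and with the first.

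On the log2 scale the heterozygous level of Rgs1 departed from the midpoint of the 2 homozygous genotypes by -0.19 (SE 0.15, 95% confidence interval -0.52 to 0.14, adjusted p 0.674). No member departed from its midpoint at an adjusted p under 0.05, and 0.933% of all tested genes did. None had an unadjusted p under 0.05 for this departure and DESeq2 called none. The intervals do not show that the steps were equal. For Rgs16 the interval of the departure ran from -0.65 to 1.41.

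**Figure D2:**
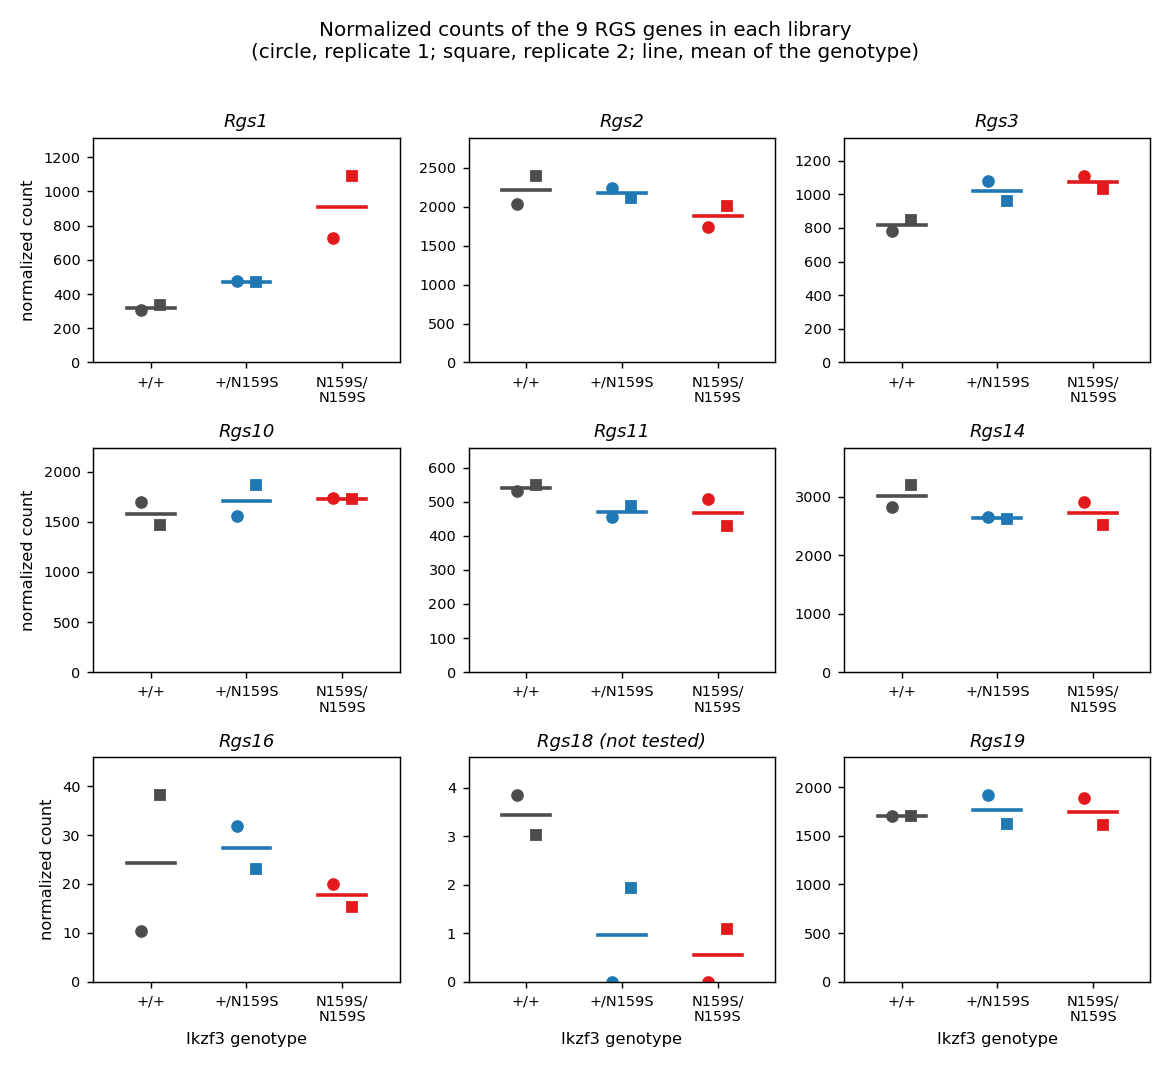
Normalized count of each of the 9 RGS genes in each library, by Ikzf3 genotype, each panel on its own axis from 0. Lines are the means of 2 libraries. Rgs1 steps from 309 and 333 to 726 and 1092, while the other panels show genotypes that lie close together or, for Rgs16 and Rgs18, few reads.

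Among the other R4 genes, Rgs3, whose product also binds G beta and gamma subunits and acts on Gi and Gq alpha, came nearest to the threshold. It lies at chr4:62559847-62704001 and had 783 and 850 normalized counts in wild-type cells, 1077 and 961 in heterozygous cells, and 1111 and 1031 in homozygous cells. Both genotypes with an N159S allele lay above the wild type and overlapped with each other. The log2 fold change was 0.39 between homozygous and wild-type cells (SE 0.11, 95% confidence interval 0.15 to 0.63, adjusted p 0.0637) and 0.32 between heterozygous and wild-type cells (SE 0.11, adjusted p 0.172). Neither passed. The first passed without Ikzf3 +/N159S replicate 2 (adjusted p 0.0475) and by 3 of the 8 other settings tried, and it was 0.305 without Ikzf3 +/+ replicate 1.

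Rgs2, at chr1:143999338-144004161, had 2043 and 2402 normalized counts in wild-type cells, 2237 and 2120 in heterozygous cells, and 1743 and 2013 in homozygous cells. Both homozygous libraries lay below all the others. The log2 fold change against the wild type was -0.24 (95% confidence interval -0.49 to 0.0029, adjusted p 0.278), which did not pass the test, and it was -0.03 in heterozygous cells. Rgs2 and Rgs1 lie in the same RGS cluster, and Rgs1 alone passed, while the interval of Rgs2 included 0.

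Rgs16, at chr1:153740349-153745468, had 8 and 38 reads in the Ikzf3 +/+ libraries, 36 and 24 in heterozygous cells and 23 and 14 in homozygous cells. The wild-type libraries alone spanned all the others. Its log2 fold change of -0.49 between homozygous and wild-type cells had an interval from -1.74 to 0.77, so that no difference was detectable at this depth, and it turned to 0.79 without Ikzf3 +/+ replicate 2. Rgs18, at chr1:144752683-144775435, had 3 and 3 reads, 0 and 2, and 0 and 1 in the same order. A count of 0 allows up to 3 reads, or 0.177 CPM in Ikzf3 +/N159S replicate 1 and 0.175 CPM in Ikzf3 N159S/N159S replicate 1, for counting error only. It was not tested. Of 12 platelet and megakaryocyte genes, 2 passed the filter, Itga2b with 55 to 89 reads per library and Gp1ba with 102 to 173. Ppbp and Gp1bb, which encode a platelet chemokine and a platelet surface glycoprotein, had 0 reads in all 6 libraries.

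In the R12 subfamily, Rgs10 (chr7:128373621-128418758) had 1700 and 1465 normalized counts in wild-type cells, 1558 and 1866 in heterozygous cells, and 1736 and 1729 in homozygous cells. The log2 fold change between homozygous and wild-type cells was 0.13 (95% confidence interval -0.12 to 0.39, adjusted p 0.613). Rgs14 (chr13:55369732-55384687) had 2827 and 3193, 2648 and 2623, and 2914 and 2519 in the same order, with a log2 fold change of -0.15 (-0.38 to 0.08, adjusted p 0.523). For Rgs14 the homozygous libraries overlapped with the wild-type ones.

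In the other subfamilies, Rgs11 (chr17:26202951-26211324), whose product works as a dimer with G beta 5, had 532 and 549 normalized counts in wild-type cells. It had 454 and 489 in heterozygous cells and 510 and 428 in homozygous cells, below the wild type in all 4 libraries, with log2 fold changes of -0.20 in both comparisons (adjusted p 0.475 and 0.443). Rgs19 (chr2:181688419-181693977) had 1707 and 1704, 1922 and 1619, and 1889 and 1609 in the order of genotypes above, and its log2 fold change between homozygous and wild-type cells was 0.04 (95% confidence interval -0.22 to 0.29, adjusted p 0.919). For Rgs10, Rgs14 and Rgs19 the intervals of this comparison lay within 0.39 of 0 on the log2 scale.

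**Figure D3:**
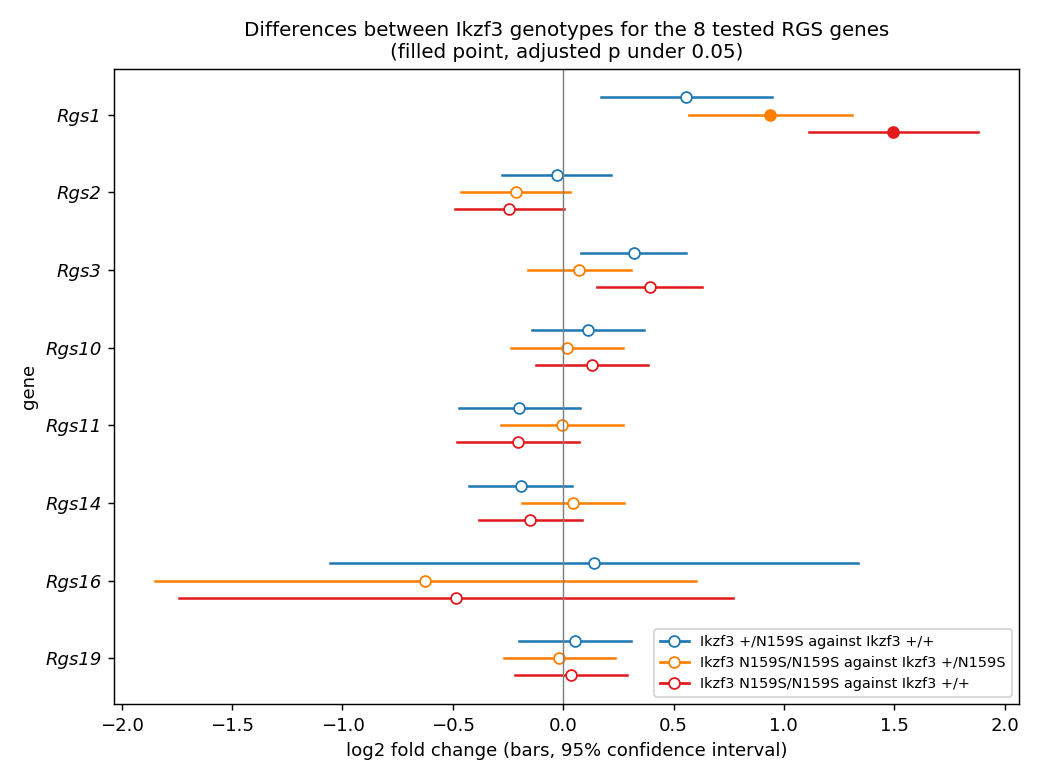
Log2 fold changes of the 8 tested RGS genes in 3 comparisons of Ikzf3 genotypes (colours), with 95% confidence intervals as bars and filled points for an adjusted p under 0.05. The 2 filled points are both Rgs1, at 1.50 and 0.94, and the bars of Rgs16 are the widest.

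Rgs1 lies in a cluster on chromosome 1 in the order Rgs2, Rgs13, Rgs1, Rgs21 and Rgs18, within which the gaps between neighbours are 64.9 to 267.4 kb. Rgs13 had 2 reads and Rgs21 had 1 read over all 6 libraries. The nearest tested genes were Rgs2, 238.1 kb away on the side of lower coordinates, and Odr4, a gene for receptor trafficking, 6112 kb away on the other side. Odr4 had 372 and 401 normalized counts in wild-type cells and 327 and 365 in homozygous cells, with a log2 fold change of -0.16 (adjusted p 0.584). Neither tested neighbour passed the test.

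The genes whose log2 CPM followed that of Rgs1 most closely over the 6 libraries were Spdl1, a spindle protein (Pearson's r 0.996), Chmp1b, of the ESCRT-III membrane machinery (0.995), and Fanci, of the Fanconi anaemia DNA repair pathway (0.989). A correlation above 0.95 was reached by 83 genes, and all share the same 6 libraries and 3 genotypes. Spdl1 had 24.4 and 24.2, 36.2 and 39.5, and 63.6 and 94.3 normalized counts in the order of genotypes above. Its log2 fold change between homozygous and wild-type cells was 1.69 (adjusted p 0.0147), and that of Fanci was 1.01 (adjusted p 0.00393). The call of Fanci held in all 6 fits that left out a library and that of Spdl1 in 3, with an adjusted p of up to 0.120. Chmp1b differed by 0.17 on that scale (adjusted p 0.379), so that its pattern was like that of Rgs1 and its change much smaller.

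Transcripts of other cell types were compared beside Rgs1, since activated lymphocytes and other leukocytes are also known to express it. Summed CPM of 12 B cell markers was 161 to 242 in wild-type cells, 394 to 654 in heterozygous cells and 114 to 164 in homozygous cells. It was thus highest in heterozygous cells, where Rgs1 was intermediate, and no marker of the list was at 0 in any library. Between wild-type and homozygous cells 10 of the 12 markers were lower and 4 of them passed the test, Ms4a1, the CD20 gene (adjusted p 0.00713), Cd79a (0.0271), Ly6d (0.0267) and Fcrla (0.0488). Without Ikzf3 +/+ replicate 2 none of the 4 was called, with Ms4a1 at 0.0612. Cd79a was also lost without Ikzf3 N159S/N159S replicate 2, Ly6d without either homozygous library and Fcrla without any one of the wild-type or homozygous libraries, with an adjusted p of up to 0.200, 0.272 and 0.321. Regulatory T cell markers summed to 202 to 215, 260 to 272 and 172 to 184 CPM. Of the 9, 4 were higher and 5 lower in homozygous than in wild-type cells. The 2 called were both lower in homozygous cells, Izumo1r (adjusted p 0.00418) and Il2ra, the CD25 gene (0.0460). Il2ra was lost without either wild-type library or Ikzf3 N159S/N159S replicate 2 (up to 0.256). Markers of effector, memory and follicular helper T cells summed to 124 to 136, 141 to 158 and 92.0 to 95.8 CPM. Of the 11 tested, 3 were higher and 8 lower in homozygous than in wild-type cells. Icos was the 1 called, and it was lower in homozygous cells (adjusted p 0.00268). Izumo1r and Icos were called in all 6 fits that left out a library. The sums of the regulatory and effector lists were both lowest in the genotype where Rgs1 was highest. For the regulatory list that order came from Izumo1r, at 79.9 and 89.1 CPM in wild-type cells and 52.5 and 39.9 CPM in homozygous cells. Without Izumo1r the sum of the regulatory list was not lowest in homozygous cells. The part of B cells or of these T cell types in the level of Rgs1 was not tested.

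The highest summed level of 12 myeloid markers was, like that of Rgs1, in Ikzf3 N159S/N159S replicate 2. The markers summed to 49.1 to 50.3 CPM in wild-type cells, 45.6 to 56.5 CPM in heterozygous cells and 56.3 to 73.6 CPM in homozygous cells. Unlike for Rgs1, the heterozygous and homozygous libraries overlapped. Cst3 alone had 25.1 to 30.0 CPM. Of the 9 tested, 8 were higher in homozygous than in wild-type cells, and Itgam was lower. None passed at an adjusted p under 0.05, 4 had an unadjusted p under 0.05 and DESeq2 called none. Clec7a and Mpo were each at 0 in 1 library, and no other marker of the list was at 0 in any. Lyz2, a lysozyme of macrophages and neutrophils, had 48.9 and 42.3 normalized counts in wild-type cells and 51.4 and 129 in homozygous cells, and the higher value was in the library where Rgs1 was highest. Their part in the rise of Rgs1 was not tested. CD8 and NK cell markers summed to 71.3 to 77.0 CPM in wild-type and 43.9 to 48.8 CPM in homozygous cells. Of 8 tested, 7 were lower and 1 higher, with 4 at an unadjusted p under 0.05 and 3 called by DESeq2. Cd8b1 was the one called in the main fit, and it was lower. The higher gene was Gzma, with 6.43 and 6.04 normalized counts in wild-type and 34.0 and 46.1 in homozygous cells. Its log2 fold change was 2.66 (adjusted p 0.0555), which did not pass. Fewer cells of a type and less RNA per cell cannot be told apart in such bulk samples.

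Rgs1 is also known as a gene that activated lymphocytes induce, and immediate early genes were therefore counted. Of 16 tested, Btg2, an antiproliferative gene, was higher in homozygous than in wild-type cells (log2 fold change 0.49, adjusted p 0.0122). Nr4a3, a nuclear receptor induced by antigen, was lower (-0.85, adjusted p 0.00445). Over the list 7 genes were higher and 9 lower, with a median of -0.02. An unadjusted p under 0.05 was reached by 7 of the 16, and DESeq2 called 2. Nr4a3 was called in all 6 fits that left out a library and Btg2 in 3, with an adjusted p of up to 0.126. Of 4 tested erythroid markers none passed, at an unadjusted p under 0.05 or by DESeq2 either.

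Other genes of the pathway were counted in 6 lists, with 72 genes tested. Between homozygous and wild-type cells 6 of them passed the test, 3 higher and 3 lower, or 8.33% where 5.21% of all genes did, and their median log2 fold change was 0.01. Among the other RGS family genes, 7 of 18 were tested and none passed, with 2 at an unadjusted p under 0.05 and none by DESeq2. Axin1 and Axin2, scaffolds of the beta-catenin destruction complex, differed by 0.04 and 0.07 on the log2 scale. Rgs12 was at 48.9 and 75.5, 81.3 and 74.2, and 113 and 124 normalized counts in the order of genotypes, with an adjusted p of 0.0651, and is named here after its values were seen.

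Among 10 tested G alpha subunits, Gnaq, which encodes Gq alpha, was the one called. It had 77.1 and 101 normalized counts in wild-type cells, 154.6 and 159.1 in heterozygous cells and 168 and 231 in homozygous cells. Its log2 fold change between the homozygous and wild-type genotypes was 1.15 (SE 0.21, adjusted p 0.00943). The call was lost without Ikzf3 +/+ replicate 1 (adjusted p 0.0848) and without Ikzf3 N159S/N159S replicate 2 (0.0779). Gnai2 and Gnas, the most abundant alpha subunits here and the partners of chemokine receptors and of receptors that raise cyclic AMP, differed by 0.03 and 0.25 on the log2 scale and did not pass (adjusted p 0.953 and 0.263).

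Of 9 tested G beta and gamma subunits, Gng2 fell and Gnb2 rose. Gng2 had 319 and 295 normalized counts in wild-type cells and 256 and 358 in heterozygous cells, but 112 and 129 in homozygous cells, a log2 fold change of -1.35 against the wild type (SE 0.19, adjusted p 0.00188). Gnb2 had 2501 and 2515 in wild-type and 3562 and 3298 in homozygous cells, a log2 fold change of 0.45 (SE 0.10, adjusted p 0.0217). That call was lost without Ikzf3 +/+ replicate 1 (adjusted p 0.133), Ikzf3 +/+ replicate 2 (0.129), Ikzf3 N159S/N159S replicate 1 (0.151) or Ikzf3 N159S/N159S replicate 2 (0.0545). Gnb1 differed by 0.08 (adjusted p 0.749).

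Of 12 tested receptor kinases, arrestins and G protein modulators none passed, with 2 at an unadjusted p under 0.05 and none by DESeq2. The kinases Grk2 and Grk6, which mark active receptors for arrestin, differed by -0.06 and -0.18 on the log2 scale. Of 19 tested effectors, 3 passed. Plcb3, a phospholipase C that Gq alpha activates, rose from 162 and 195 normalized counts in wild-type to 442 and 407 in homozygous cells, with a log2 fold change of 1.24 (SE 0.15, adjusted p 0.00056). It was also called in heterozygous cells, at 350 and 327 normalized counts (adjusted p 0.0124, or 0.0923 without Ikzf3 +/+ replicate 1). Adcy6, an adenylyl cyclase, fell from 2427 and 2677 to 1590 and 1620, with a log2 fold change of -0.67 (adjusted p 0.00557, or 0.0607 without Ikzf3 +/+ replicate 2). It too was called in heterozygous cells, at 1632 and 1976 normalized counts (log2 fold change -0.50, adjusted p 0.0491), but not without either wild-type library or Ikzf3 +/N159S replicate 1 (adjusted p up to 0.302). Pik3cg, the phosphoinositide 3-kinase that G beta and gamma subunits activate, was called lower (log2 fold change -0.44, adjusted p 0.0469), but it was called in 1 of the 6 fits that leave out a library. It was not called without either wild-type library (adjusted p 0.229 and 0.150), Ikzf3 +/N159S replicate 1 (0.0519) or either homozygous library (0.325 and 0.0622). Arhgef1 and Rac2, the most abundant effectors here, differed by -0.14 and 0.0038.

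**Figure D4:**
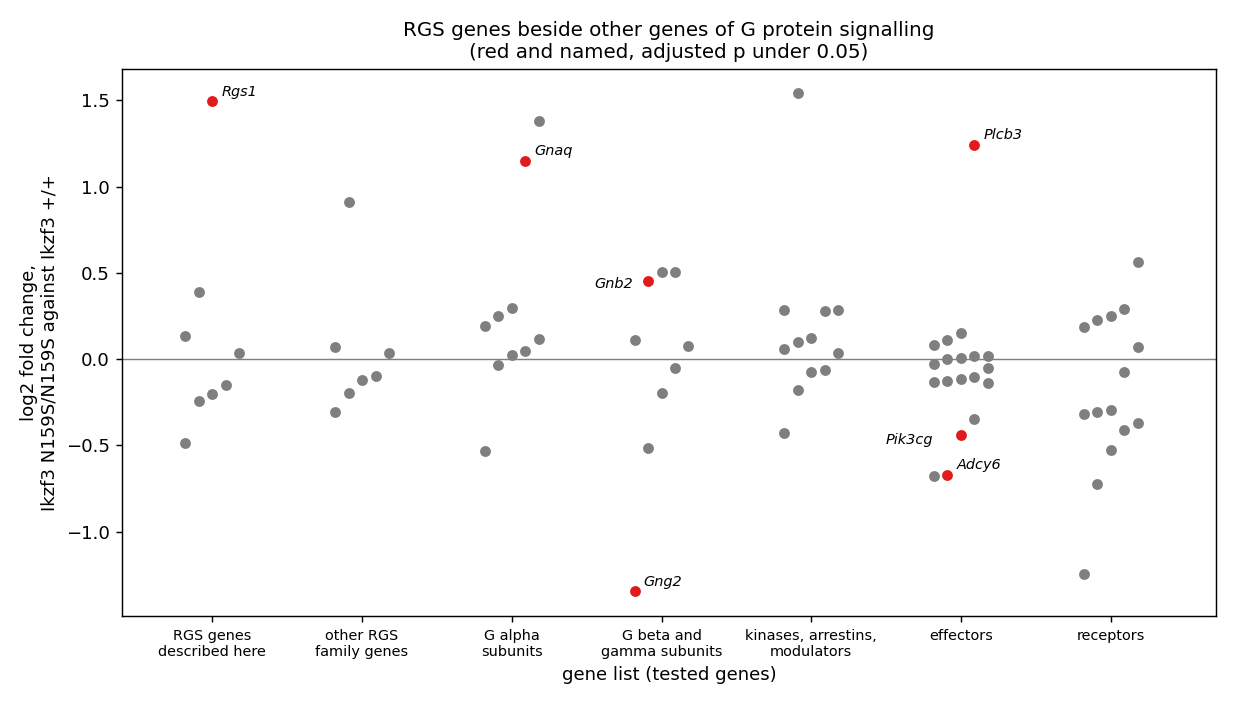
Log2 fold change between homozygous and wild-type cells (vertical axis) for the 8 tested RGS genes and the tested genes of 6 lists of G protein signalling, 1 point per gene. Red, named points passed the test at an adjusted p under 0.05, and in addition to Rgs1 they are 3 genes above and 3 below 0.

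None of 15 tested chemoattractant and Gi-coupled receptors passed between homozygous and wild-type cells, and their median log2 fold change was -0.29. An unadjusted p under 0.05 was reached by 9 of the 15, and DESeq2 called 1. S1pr1, which draws cells out of lymphoid organs, had 6288 and 5954 normalized counts in wild-type and 6939 and 7393 in homozygous cells (log2 fold change 0.23, adjusted p 0.224), and Ccr7, the homing receptor of naive T cells, differed by -0.08 (adjusted p 0.753). Cxcr4, the receptor for CXCL12, had 2620 and 2679 normalized counts in wild-type, 1482 and 1291 in heterozygous and 2043 and 2216 in homozygous cells. Cxcr4 was called in heterozygous against wild-type cells (log2 fold change -0.93, adjusted p 0.00209) and departed from the midpoint of the homozygous genotypes by -0.78 on the log2 scale (adjusted p 0.00267). Its heterozygous level thus lay below the range of the other genotypes, where that of Rgs1 lay inside it.

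Receptors called in comparisons with heterozygous cells, Cxcr4 and 3 others, are named after their values were seen. The others were highest in heterozygous cells. Cxcr3, a receptor of effector T cells, had 12.9 and 19.1 normalized counts in wild-type cells, 86.6 and 60.7 in heterozygous cells and 11.3 and 13.2 in homozygous cells. It was called against the wild type (log2 fold change 2.18, adjusted p 0.0220) and departed from the midpoint by 2.38 (adjusted p 0.00573). Without Ikzf3 +/N159S replicate 1 neither call held, the second at 0.0572, and the first was also lost without either wild-type library (adjusted p up to 0.133). Cxcr5, the homing receptor of follicular cells, departed upward by 1.65 (adjusted p 0.0470), a call lost without any one of the wild-type or heterozygous libraries (adjusted p up to 0.208). From heterozygous to homozygous cells 4 of the 15 receptors were called. Cxcr4 was higher by 0.62 on the log2 scale (adjusted p 0.0138), and Cxcr3, Cxcr5 and Ccr4, which marks helper and regulatory subsets, had log2 fold changes of -2.59, -2.27 and -1.95 (adjusted p 0.0107, 0.0237 and 0.0401). Cxcr4 was lost there without Ikzf3 +/N159S replicate 2 or Ikzf3 N159S/N159S replicate 2 (up to 0.0983), and Cxcr3 without Ikzf3 +/N159S replicate 1 or either homozygous library (up to 0.0628). Cxcr5 was lost without Ikzf3 +/N159S replicate 1 or Ikzf3 N159S/N159S replicate 2 (up to 0.0911), and Ccr4 without any one of the 4 libraries compared (up to 0.217). The summed levels of the B cell, regulatory T cell and effector T cell markers given above were also highest in heterozygous cells. In the effector list, to which Cxcr3 and Cxcr5 belong, 7 of the 11 tested were higher in heterozygous than in wild-type cells and 4 lower. The part of those cell types in these calls was not tested.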

How the data were processed

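RNA was extracted by the authors with Trizol, poly(A)-selected and made into libraries with an NEBNext Ultra II kit. Reads were trimmed with Trimmomatic 0.38.1, aligned to mm10 with HISAT2 2.2.1 and counted per refGene gene with HTSeq 2.0.2, per the submitters' processing notes and methods. The strand setting was not given in the sources used here. The deposited files hold raw counts per gene, 1 file per library, and the 5 closing entries for uncounted reads were left out (for example, 15.8% to 20.0% of all entries had no feature). The 9 members and the gene lists were chosen with earlier results of these data known.

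Counts were fitted with edgeR 4.0.16 (R 4.3.3) after filterByExpr (minimum count 10) and TMM scaling, with 1 coefficient per genotype over all 6 libraries, and glmQLFTest with Benjamini-Hochberg adjustment over 12117 genes at 0.05. DESeq2 1.42.0 was an alternative. RPKM used the exons of RefSeq-matched GENCODE M21 transcripts. Proteins translated from the coding sequences were aligned with MAFFT 7.526, and the codons were then placed on that alignment. The fits were first run on simulated counts in which 200 genes were changed and every gene had the same spread. That setting is simpler than these libraries, so it does not bear on single calls. Replicate libraries differed by far more than sampling noise (chi-square per degree of freedom 10.4 to 13.5). Named were all members, genes of the other lists called between homozygous and wild-type cells, the 2 most abundant genes of each signalling list, the 3 genes most like Rgs1, its tested neighbours, and markers beside a result. Rgs12 and the receptors called only in comparisons with heterozygous cells were added after their values were seen. Adrbk1 and Adrbk2 (now Grk2 and Grk3) and Ahsp did not match a symbol in the files. A list of genes of naive T cells and of the sort is not reported here.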

Additional observations from a re-analysis of the deposited data

How the results depend on the processing

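Rgs1 was called between homozygous and wild-type cells under all 8 other settings (log2 fold change 1.47 to 1.51) and in all 6 fits that left out a library (1.18 to 1.77). Between homozygous and heterozygous cells it was called under all 8 and in 3 of the 6. The numbers of the replicates did not pair the libraries (correlations of deviations -0.17, -0.22 and 0.24), and with a replicate block 1, 0, 1 and 0 members were called in the 4 comparisons, as without it, and 495, 149, 135 and 91 of all genes. Rgs1 then differed by 1.48 (adjusted p 0.000613).

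Members called between homozygous and wild-type cells numbered 2 rather than 1 with no filter on low counts, by the exact test of edgeR and with a block for the library of each genotype with more genes detected, the added gene being Rgs3. Between heterozygous and wild-type cells they numbered 1 with no filter and 2 with that block, rather than 0. Leaving out a library gave 1 to 2, 0 to 1 and 0 to 1 called members in the 3 comparisons of genotypes, and 236 to 701, 74 to 244 and 44 to 186 of all genes, and 41 to 114 for the departure from the midpoint. Among the 72 signalling genes it gave 3 to 6, 1 to 4, 1 to 5 and 2 to 4 calls, where all libraries gave 6, 4, 5 and 3. Of all genes, no filter called 1047, 710, 553 and 399, the block by genes detected 1760, 1385, 834 and 682, the exact test 992, 607 and 451 in the comparisons of genotypes, and DESeq2 341 between heterozygous and wild-type cells and 194 for the departure. Among the signalling genes, no filter called 10, 8 and, for the departure, 5, the block by genes detected 19, 13, 9 and 7, the exact test 8 between heterozygous and wild-type cells, and DESeq2 5 for the departure. The cause of these differences was not tested.

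The sign changed in 22 of 428 refits of the members, none of them called. Rgs11 between homozygous and heterozygous cells went from -0.01 to 0.0055 by DESeq2, 0.0059 with its size factors and 0.0064 with no filter. All others left out a library, where log2 fold changes ran from -1.10 to 0.79 for Rgs16 and -0.084 to 0.15 for Rgs19 (homozygous against wild type). They ran from -0.14 to 0.093 for Rgs2, -0.021 to 0.24 for Rgs10, -0.47 to 1.41 for Rgs16 and -0.076 to 0.17 for Rgs19 (heterozygous against wild type). They ran from -0.0061 to 0.16 for Rgs3, -0.11 to 0.15 for Rgs10, -0.14 to 0.13 for Rgs11, -0.065 to 0.16 for Rgs14 and -0.14 to 0.11 for Rgs19 (homozygous against heterozygous), and from -0.088 to 0.17 for Rgs10 and -0.094 to 0.15 for Rgs19 (departure). With 2 libraries per genotype, leaving one out assumes that the lone library varies like the others. Depth limits Rgs16 and Rgs18, with 143 and 9 reads in all.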
